A study of Mus musculus with 6 samples.

Results

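The genes described here are 10 surface and regulatory markers of the immature, transitional and follicular stages of B cell development, Cd93, Cd24a, Cr2, Fcer2a, Ms4a1, Cd38, Cd55, Klf2, Zbtb20 and Zfp318. They were taken by name from the authors' table of 22098 gene names, and all 10 were present and passed the filter of a mean RPKM (reads per transcript kilobase, normalised to library size) of at least 1, which left 10322 genes for testing. The rule takes genes by name and not by measured value, though the names were chosen with earlier results of these data known. Poly(A)-enriched RNA had been sequenced from sorted IgM+ B cells of the bone marrow of C57BL/6 mice aged 6 weeks. The 3 genotypes were wild type, Ikaros_ZnF1-/- (the ZnF1 mutant, which lacks zinc finger 1 of Ikaros) and Ikaros_ZnF4-/- (the ZnF4 mutant, which lacks zinc finger 4), with 2 libraries each. The labels describe no treatment, give the mutations as carried on both alleles on the same strain background, and do not say whether a library came from 1 mouse or from pooled mice, so p-values here cover the spread among the libraries, which may be technical.

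A B cell that has just put IgM on its surface in the marrow is called immature. It carries much CD93 and CD24, leaves for the spleen as a transitional cell, and on becoming follicular loses CD93, keeps less CD24, and gains CD21 and CD23, which are encoded by Cr2 and Fcer2a. IgM+ marrow cells are a mixture of newly made immature cells and mature recirculating follicular cells that have returned to the marrow, so these markers read both the mixture and the level per cell. In bulk RNA, fewer cells of a type and less RNA per cell cannot be told apart. Ikaros is a zinc finger transcription factor of lymphocytes that binds DNA with the core sequence GGGAA.

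The 250 bases before the transcript start are shown for Cr2 and Fcer2a, the follicular receptor genes that were both highest in the ZnF1 libraries, and for Zbtb20, the member with the widest range. They are from the RefSeq promoter table of the build GRCm38.p6, read 5′ to 3′ on the strand of the gene, with each GGGAA or its reverse complement TTCCC in capitals. That table is a different build from mm9, to which the reads had been mapped.
Cr2, chr1:195176720-195176969, minus strand: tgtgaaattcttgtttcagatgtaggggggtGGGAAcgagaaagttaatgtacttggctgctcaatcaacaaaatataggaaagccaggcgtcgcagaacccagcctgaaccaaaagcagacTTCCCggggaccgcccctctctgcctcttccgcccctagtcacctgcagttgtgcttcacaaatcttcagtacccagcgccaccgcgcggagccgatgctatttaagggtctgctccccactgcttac
Fcer2a, chr8:3694175-3694424, minus strand: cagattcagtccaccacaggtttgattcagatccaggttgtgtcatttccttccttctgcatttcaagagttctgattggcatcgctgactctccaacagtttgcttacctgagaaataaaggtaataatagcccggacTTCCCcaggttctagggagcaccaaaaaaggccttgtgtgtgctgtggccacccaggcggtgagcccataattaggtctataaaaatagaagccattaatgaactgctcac
Zbtb20, chr16:43247034-43247283, plus strand: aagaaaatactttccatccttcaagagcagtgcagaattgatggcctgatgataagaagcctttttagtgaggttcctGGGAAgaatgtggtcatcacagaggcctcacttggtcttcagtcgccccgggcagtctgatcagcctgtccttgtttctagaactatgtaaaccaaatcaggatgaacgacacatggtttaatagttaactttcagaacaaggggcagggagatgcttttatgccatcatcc
The Cr2 window held 2 such matches, with their first bases at -219 and -128 from the start, the Fcer2a window held 1 at -111, and the Zbtb20 window held 1 at -172. Of the 7 members with an entry in the table, 5 held the motif on either strand (Cr2, Fcer2a, Cd38, Cd55 and Zbtb20), as did 56.2% of all 32851 promoter windows of that length. Cd93, Cd24a and Ms4a1 had no entry. The Cd38 start lay 256 bases from that of the GENCODE transcript paired with its row, further than the window is long. Fcer2a had 3 listed starts, of which the nearest to its GENCODE transcript is shown. The Klf2 and Zfp318 windows held no GGGAA. They were the most GC-rich of the 7, at 71.2% and 79.6% GC. The core CACCC, which Klf factors bind, was in 6 of the 7 windows on either strand and in 52.0% of all windows, and 1 of the GGGAA matches in Cr2 and the match in Cd38 overlapped a CACCC match on the opposite strand. A match is a description of the letters and not a binding site.

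In wild-type cells the members covered a wide range of levels. Ms4a1, which encodes the B cell surface protein CD20, was the highest at 1051 ± 6.01 RPKM (SD, n = 2) and ranked 12 of the 10322 tested genes. Fcer2a followed at 241 ± 16.6 RPKM, then Klf2 at 139 ± 44.5 and Cd24a at 137 ± 13.8, whose ranges of mean ± SD overlapped. Cd38 at 82.2 ± 8.56 RPKM and Cd55 at 71.0 ± 11.2 overlapped in the same way, and so did Zfp318 at 31.6 ± 8.41 and Cr2 at 23.9 ± 1.13. Cd93, at 42.0 ± 0.636 RPKM, lay between these pairs and overlapped with neither. Zbtb20 was by far the lowest, at 1.0 ± 0.283 RPKM and above 3.33% of the tested genes. The authors had rounded values to 0.1 RPKM, a coarse step at the level of Zbtb20.

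**Figure D1:**
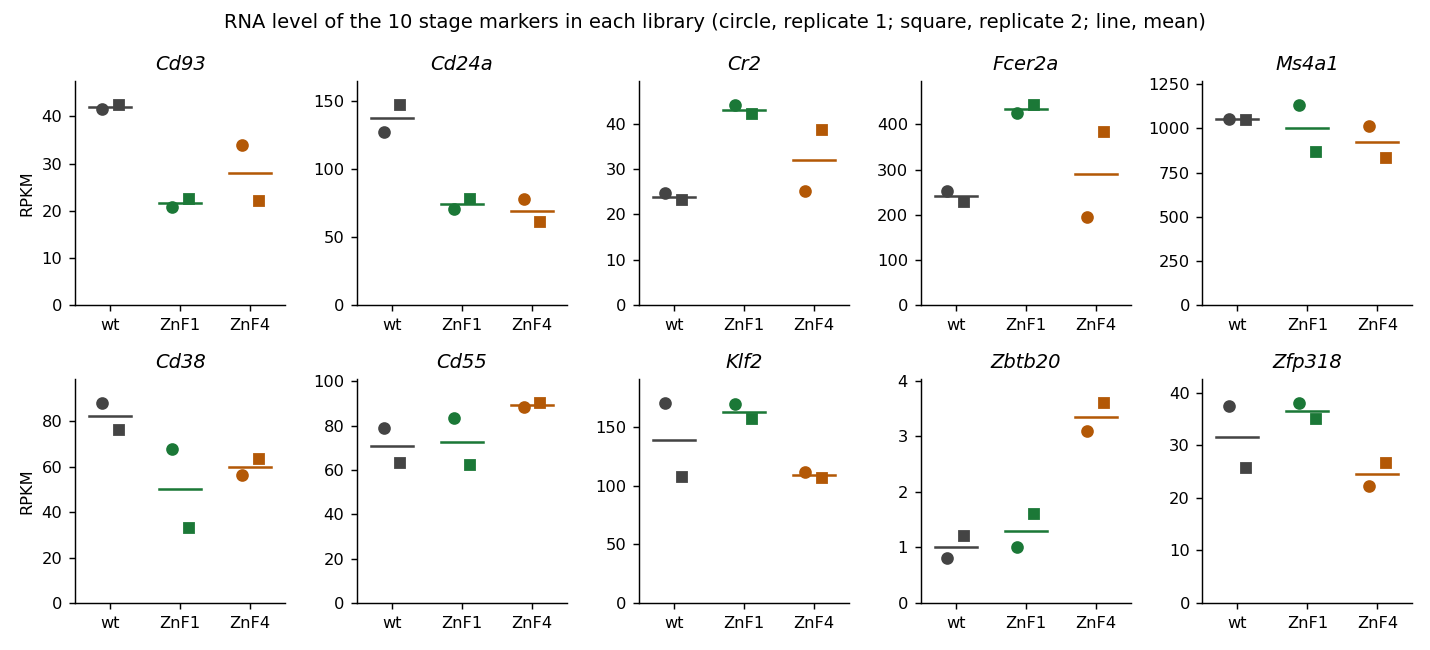
RNA level in RPKM (vertical axis from 0, one scale per gene) of the 10 markers in the 3 genotypes. Circles are replicate 1, squares replicate 2 and lines the mean of 2. Cd93 and Cd24a lay lower in all 4 mutant libraries than in wild type, and the ZnF4 libraries lay apart for Cd93, Cr2 and Fcer2a.

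Of the early markers Cd24a and Cd93, Cd24a fell in ZnF4 mutants and the other 3 comparisons with wild type did not pass. Cd24a encodes the small glycolipid-anchored protein CD24, which declines as B cells mature and is also carried by red cell precursors and granulocytes. Its wild-type replicates 1 and 2 held 127 and 147 RPKM, beside 70.4 and 77.6 in ZnF1 mutants, and 77.8 and 61.0 in ZnF4 mutants. All 4 mutant libraries lay below both wild-type libraries, at 0.540 (ZnF1) and 0.507 (ZnF4) of the wild-type mean. In the ZnF4 mutant Cd24a fell by 0.98 on the log2(RPKM + 0.5) scale used for all fold changes here (limma, SE 0.16, 95% interval -1.35 to -0.61, adjusted p = 0.0221). In the ZnF1 mutant the log2 fold change was -0.88 (SE 0.16, 95% interval -1.25 to -0.51, adjusted p = 0.0977) and did not pass. The ZnF1 and ZnF4 mutants differed in Cd24a by 0.10 (95% interval -0.27 to 0.47, adjusted p = 0.790), so the mutants are not shown to differ in it. The ZnF4 call did not hold without either wild-type library (replicates 1 and 2) or either ZnF4 library (replicates 1 and 2; adjusted p = 0.115, 0.198, 0.123 and 0.180), while the log2 fold change stayed between -1.16 and -0.81. It was also lost without a filter on low values (adjusted p = 0.0759), with quantile normalization (0.0607) and with a term for sex (0.0839), so that 7 of 17 alternatives ended it.

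Cd93 encodes the surface protein recognised by the AA4.1 antibody, the standard mark of immature and transitional B cells. The wild-type libraries held 41.5 and 42.4 RPKM, the ZnF1 libraries 20.7 and 22.6, and the ZnF4 libraries 33.9 and 22.1. The ZnF1 libraries and ZnF4 replicate 2 stood close together near 0.516 of the wild-type mean (the ZnF1 ratio), and ZnF4 replicate 1 lay between them and wild type. The log2 fold change was -0.94 in ZnF1 mutants (SE 0.19, 95% interval -1.39 to -0.49, adjusted p = 0.124) and -0.61 in ZnF4 mutants (SE 0.19, 95% interval -1.06 to -0.15, adjusted p = 0.164), and neither passed. The ZnF4 value was -0.91 without ZnF4 replicate 1 and -0.30 without ZnF4 replicate 2. In the ZnF1 comparison Cd93 had rank 134 and Cd24a rank 73 of 10322 genes by p.

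The follicular receptors lay higher in ZnF1 mutants. Cr2 encodes CD21, the complement receptor that binds C3 fragments and is part of the B cell coreceptor. The wild-type libraries held 24.7 and 23.1 RPKM, the ZnF1 libraries 44.1 and 42.1, and the ZnF4 libraries 25.2 and 38.6. The ZnF1 libraries did not overlap with either other genotype, and ZnF4 replicate 1 was within 1 RPKM of wild-type replicate 1. The log2 difference from wild type was 0.84 in ZnF1 mutants, a ratio of means of 1.80 (SE 0.19, 95% interval 0.39 to 1.29, adjusted p = 0.163), and 0.38 in ZnF4 mutants (95% interval -0.07 to 0.83, adjusted p = 0.369). Neither passed. The ZnF4 value was 0.68 without ZnF4 replicate 1 and 0.076 without ZnF4 replicate 2.

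Fcer2a encodes CD23, the low-affinity IgE receptor of follicular B cells. The wild-type libraries held 253 and 229 RPKM, the ZnF1 libraries 426 and 443, and the ZnF4 libraries 195 and 384. Wild-type and ZnF1 libraries did not overlap, and the ZnF4 libraries lay on either side of wild type. The ZnF1 log2 fold change was 0.85, a ratio of means of 1.80 as for Cr2 (SE 0.29, 95% interval 0.17 to 1.53, adjusted p = 0.311). The ZnF4 value was 0.18 (95% interval -0.50 to 0.87, adjusted p = 0.796), and it was 0.67 without ZnF4 replicate 1 and -0.30 without ZnF4 replicate 2. The mean of the ZnF4 pair therefore describes neither of its libraries.

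The ZnF4 libraries stood apart in these 3 genes together. Replicate 2 held 1.97 times as much Fcer2a and 1.53 times as much Cr2 RNA as replicate 1, and replicate 1 held 1.53 times as much Cd93. The gap between the ZnF4 libraries was larger for Fcer2a than for 99.2% of the tested genes, and larger for Cr2 and for Cd93 than for 95% of them in each case. In the ZnF1 pair the same genes were close, with ratios of the higher to the lower library of 1.04 for Fcer2a, 1.05 for Cr2 and 1.09 for Cd93. ZnF4 replicate 2 and ZnF1 replicate 2 came from male mice by Xist and Ddx3y, and the other 4 libraries from female mice. Within the ZnF4 pair sex and replicate cannot be told apart. With a term for sex, the ZnF1 log2 fold changes were 0.59 for Fcer2a, 0.70 for Cr2 and -0.82 for Cd93. The ZnF4 values with that term were -0.072, 0.24 and -0.49. The part of sex in the gap between the ZnF4 libraries was not tested.

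Late and early markers were also set against each other within each library. The ratio of Cr2 to Cd93 was 0.595 and 0.545 in wild type, 2.13 and 1.86 in ZnF1 mutants, and 0.743 and 1.75 in ZnF4 mutants. The ratio of Fcer2a to Cd93 was 6.08 and 5.40 in wild type, 20.6 and 19.6 in ZnF1 mutants, and 5.75 and 17.4 in ZnF4 mutants. For both ratios the ZnF1 libraries and ZnF4 replicate 2 formed the high set, and wild type and ZnF4 replicate 1 the low set. The ratio of Cr2 to Cd24a was 0.194 and 0.157 in wild type, 0.626 and 0.543 in ZnF1 mutants, and 0.324 and 0.633 in ZnF4 mutants, so that here all 4 mutant libraries lay above wild type, with ZnF4 replicate 1 between wild type and the other mutant libraries. The ratio of Fcer2a to Cd24a had the same order of groups, at 1.99 and 1.56 in wild type, 6.05 and 5.70 in ZnF1 mutants, and 2.51 and 6.29 in ZnF4 mutants. A ratio within a library shows unequal levels and not which of its members differs.

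**Figure D2:**
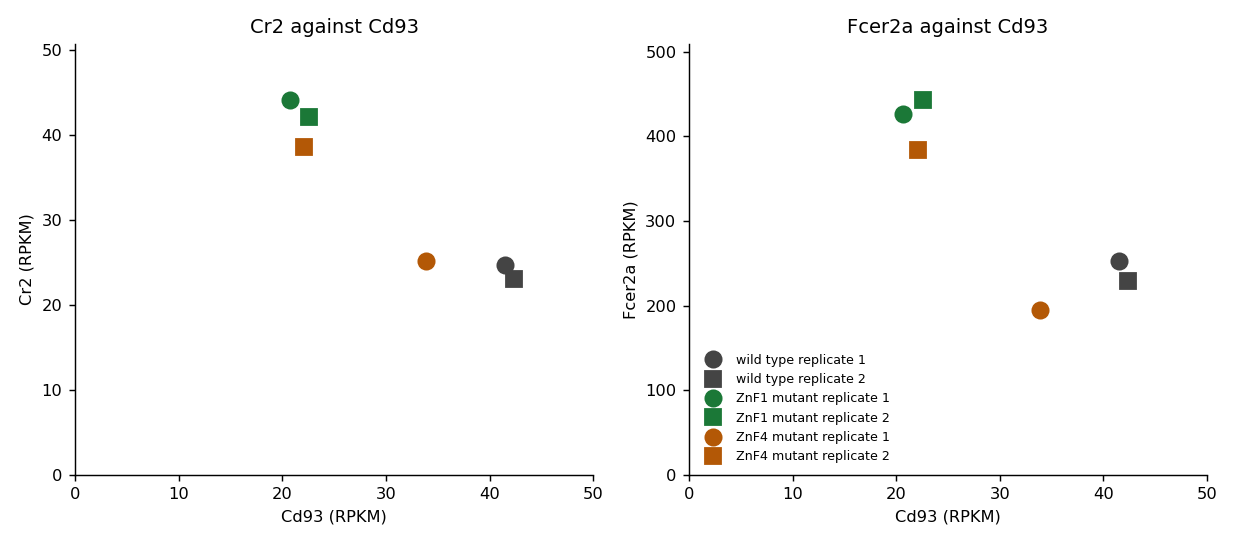
RPKM of Cr2 (left) and Fcer2a (right) against RPKM of Cd93 in the 6 libraries, axes from 0, with colours for genotype, circles for replicate 1 and squares for replicate 2. The ZnF1 libraries and ZnF4 replicate 2 lie at low Cd93 (20.7 to 22.6 RPKM) and high Cr2 and Fcer2a, and the wild-type libraries at Cd93 of 41.5 and 42.4 RPKM.

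Of the other surface proteins, Ms4a1 was at 1056 and 1047 RPKM in wild type, 1133 and 868 in ZnF1 mutants, and 1014 and 835 in ZnF4 mutants. Its range over all libraries was the narrowest of the members, at 1.36 from lowest to highest. The log2 fold changes were -0.08 (95% interval -0.62 to 0.45, adjusted p = 0.930) in ZnF1 and -0.19 (95% interval -0.72 to 0.34, adjusted p = 0.716) in ZnF4 mutants. The intervals leave room for a change of either sign in each.

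Cd38 encodes an ecto-enzyme that breaks down NAD and is a receptor of mature mouse B cells. The wild-type libraries held 88.2 and 76.1 RPKM, the ZnF1 libraries 67.7 and 32.9, and the ZnF4 libraries 56.5 and 63.3. All mutant libraries lay below wild type, and ZnF1 replicate 2 was far below the rest. The log2 fold change was -0.79 (SE 0.30, adjusted p = 0.358) in ZnF1 and -0.45 (SE 0.30, adjusted p = 0.479) in ZnF4 mutants. The ZnF1 value rested on 1 library: it was -1.30 without ZnF1 replicate 1 (adjusted p = 0.00504) and -0.27 without ZnF1 replicate 2. Bst1, which encodes CD157 and is the neighbouring relative of Cd38 in the NAD-cleaving enzyme family, was at 15.9 and 16.1 RPKM in wild type, 5.90 and 8.80 in ZnF1 mutants and 6.50 and 5.90 in ZnF4 mutants. Bst1 fell in ZnF4 mutants (log2 fold change -1.30, adjusted p = 0.0162) and did not pass in ZnF1 mutants (-1.10, adjusted p = 0.0926).

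Cd55 encodes decay-accelerating factor, a membrane-anchored inhibitor of complement activation. The wild-type libraries held 78.9 and 63.0 RPKM, the ZnF1 libraries 83.5 and 62.0, and the ZnF4 libraries 88.2 and 90.3. The ZnF1 and wild-type libraries overlapped, and both ZnF4 libraries lay above them. The log2 fold change was 0.03 (95% interval -0.39 to 0.45, adjusted p = 0.977) in ZnF1 and 0.34 (95% interval -0.08 to 0.75, adjusted p = 0.381) in ZnF4 mutants. Its close copy Cd55b, listed under its older name Daf2, was between 0 and 0.20 RPKM in every library, and reads of such close copies cannot be assigned with certainty.

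The nuclear regulators were Klf2, Zfp318 and Zbtb20. Klf2, a Krüppel-like factor that restrains division and guides homing of follicular B cells, was at 171 and 108 RPKM in wild type, 169 and 157 in ZnF1 mutants, and 111 and 107 in ZnF4 mutants. Wild-type replicate 1 was with the ZnF1 libraries and wild-type replicate 2 with the ZnF4 libraries, so no comparison with wild type separated them (log2 fold changes 0.26 and -0.31, adjusted p = 0.699 and 0.488). The mutants did not overlap with each other, and their direct comparison gave 0.58 higher in ZnF1 mutants (95% interval 0.08 to 1.07, adjusted p = 0.184), which did not pass.

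Zfp318 encodes a nuclear zinc finger protein that lets long transcripts run through to the IgD exons, and IgD comes up as B cells mature. The wild-type libraries held 37.5 and 25.6 RPKM, the ZnF1 libraries 38.1 and 35.1, and the ZnF4 libraries 22.2 and 26.7. As for Klf2, the higher wild-type library was replicate 1, by 1.46-fold for Zfp318 and 1.59-fold for Klf2, gaps larger than those of 93.5% and 96.2% of tested genes in that pair. The log2 fold changes were 0.24 (adjusted p = 0.708) in ZnF1 and -0.34 (adjusted p = 0.409) in ZnF4 mutants, and the direct comparison gave 0.58 higher in ZnF1 mutants (95% interval 0.13 to 1.03, adjusted p = 0.150). Zfp318 was the only member with 2 rows in the table. The longer transcript NM_207671 was at 20.3 and 12.8 RPKM in wild type, 22.3 and 24.1 in ZnF1 and 14.2 and 15.6 in ZnF4 mutants, between 0.50 and 0.687 of the row used in every library. In wild-type replicate 1 plasma cell markers also stood apart: 8 listed genes summed to 846 RPKM there and to between 213 and 400 in the other libraries. Their part in the gap of Klf2 and Zfp318 was not tested.

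Zbtb20, a BTB zinc finger repressor known from germinal centre and plasma cells, was at 0.80 and 1.2 RPKM in wild type, 1.0 and 1.6 in ZnF1 mutants, and 3.10 and 3.60 in ZnF4 mutants. Both ZnF4 libraries lay above all others, at 3.35 times the wild-type mean, and the ZnF1 and wild-type libraries overlapped. Zbtb20 rose in ZnF4 mutants (log2 fold change 1.37, SE 0.27, 95% interval 0.73 to 2.01, adjusted p = 0.0454) and did not pass in ZnF1 mutants (0.26, 95% interval -0.38 to 0.89, adjusted p = 0.788). The direct comparison gave -1.11 for ZnF1 against ZnF4 (95% interval -1.75 to -0.48, adjusted p = 0.0665) and did not pass. It passed under 4 of 16 alternatives, which were quantile normalization (adjusted p = 0.0494), the replicate number as a block (0.0474), the granulocyte and monocyte term (0.0128) and leaving out ZnF1 replicate 2 (0.0450), so whether the mutants differ in Zbtb20 depended on the setting. The ZnF4 call was lost without either wild-type library (replicates 1 and 2) or either ZnF4 library (replicates 1 and 2; adjusted p = 0.243, 0.161, 0.207 and 0.321), with log2 fold changes between 1.18 and 1.56. It was also lost with an added 0.1 in place of 0.5 (adjusted p = 0.0507), without a filter (0.0837), with quantile normalization (0.0524), with a term for sex (0.128) and with a term for the granulocyte and monocyte level (0.0630), 9 of the 16 alternatives that could be run.

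**Figure D3:**
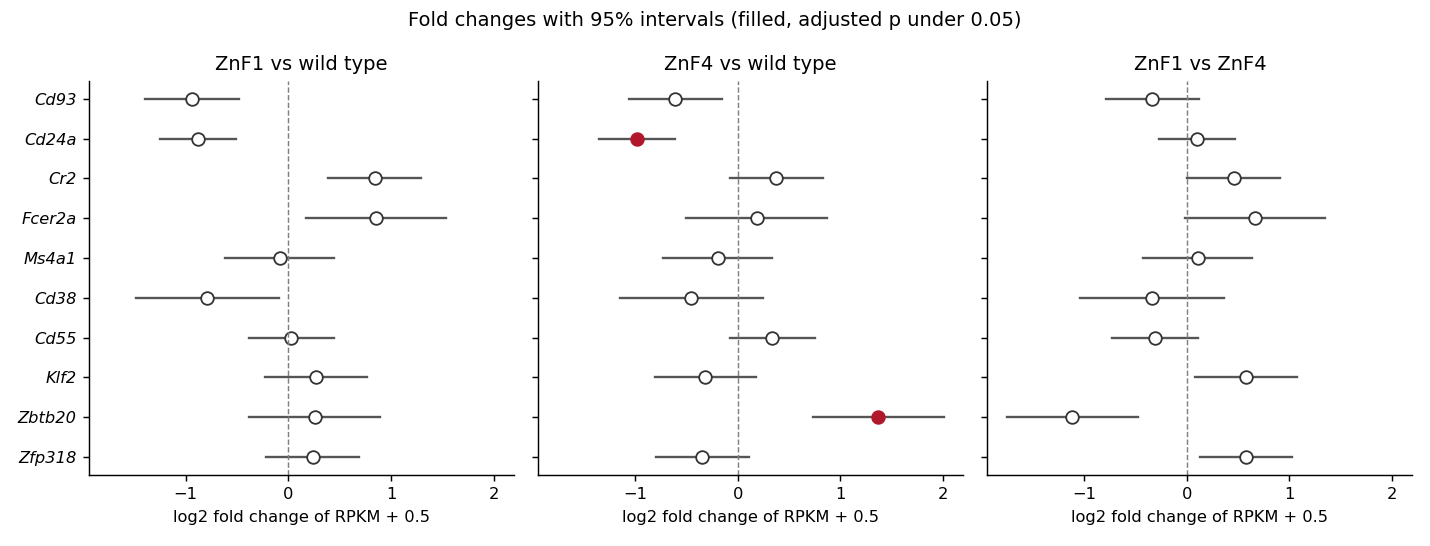
Log2 fold change of RPKM + 0.5 (horizontal axis) of each member with its 95% interval in the 3 comparisons, filled where the adjusted p was under 0.05. Filled points are Cd24a (-0.98) and Zbtb20 (1.37) in ZnF4 mutants against wild type.

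Counted by limma over the whole table, 0 of the 10 members were called in ZnF1 mutants, where 0.271% of all tested genes were, and 5 had an unadjusted p under 0.05 (Cd93, Cd24a and Cd38 lower, Cr2 and Fcer2a higher), against 11.9% of all genes. In the ZnF4 mutant 2 of 10 were called against 3.20% of all genes, 1 higher (1.78% of all) and 1 lower (1.41%). There, 3 members had an unadjusted p under 0.05 against 17.4%. In the direct comparison of the mutants 0 of 10 were called against 4.78%, and 4 had an unadjusted p under 0.05 against 20.0%. Libraries did not overlap for 5 of 10 members in the ZnF1 comparison (41.5% of all genes), 7 in the ZnF4 comparison (50.4%) and 6 in the direct comparison (46.8%), shares near those of the background. The median log2 fold change of the members was 0.13, -0.25 and 0.10 in these comparisons, beside -0.0019, -0.02 and 0.03 over all tested genes. The median absolute change was 0.53, 0.36 and 0.40, beside 0.15, 0.19 and 0.19. The comparisons share the wild-type libraries, so the values for the mutants are not independent.

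Other genes of these stages, listed from textbook markers with earlier results known, are given for setting. Beside these and the further lists below, 0.271%, 3.20% and 4.78% of all tested genes passed in the ZnF1, ZnF4 and direct comparisons. By limma 11.9%, 17.4% and 20.0% had an unadjusted p under 0.05. Of 12 immature and marrow stage genes, 0 passed by limma in ZnF1 mutants (6 at an unadjusted p under 0.05) and 3 in ZnF4 mutants (7). The surrogate light chain genes Igll1 (log2 fold change 3.75) and Vpreb1 (2.64) rose there, and the recombinase gene Rag1 fell by 2.18. The same 3 passed by limma between the mutants (6 at an unadjusted p under 0.05). For ZnF1 against ZnF4 they were at -2.42 (Igll1, adjusted p = 0.0153), -1.84 (Vpreb1, 0.0325) and 1.62 (Rag1, 0.0247). With 1 library left out these ran from -2.73 to -2.12, -2.24 to -1.44 and 1.19 to 2.05. Cd24a and the surrogate light chain genes, all high at early stages, stood in opposite directions in ZnF4 mutants. Over the whole list, 8 genes had a negative and 4 a positive log2 fold change in ZnF4 mutants, with a median of -0.27. In ZnF1 mutants 7 were negative and 5 positive, with a median of -0.47. Of 17 follicular and mature stage genes, 0 passed by limma in ZnF1 mutants (3 at an unadjusted p under 0.05), with a median log2 fold change of 0.11. In ZnF4 mutants 1 fell (4 at an unadjusted p under 0.05), with a median of -0.09. The gene that fell was Tnfrsf13c, which encodes the BAFF receptor that mature B cells need to survive, by 0.83, from 418 and 434 RPKM to 243 and 236, with 336 and 287 in ZnF1 mutants.

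Families and partners of the members gave few calls. Of 9 tested Klf genes other than Klf2, 0 passed against wild type by limma (0 in ZnF1 and 3 in ZnF4 mutants at an unadjusted p under 0.05). Between the mutants, Klf10 was 1.06 higher in ZnF1 than in ZnF4 mutants (adjusted p = 0.0351), at 10.3 and 8.10 RPKM against 3.60 and 4.70. The wild-type libraries held 9.10 and 6.70 RPKM. Of 11 tested BTB zinc finger genes other than Zbtb20, 0 passed against wild type by limma (1 and 4 at an unadjusted p under 0.05). Between the mutants, Bcl6, the germinal centre repressor, was 0.67 higher (adjusted p = 0.0247) and Zbtb38 0.91 lower (log2 fold change -0.91, adjusted p = 0.0439) with finger 1 lost. Of 6 tested complement receptor and regulator genes, 0 passed in any comparison by limma (3, 0 and 1 at an unadjusted p under 0.05). The smallest p there belonged to C5ar1 and C3, both high in ZnF1 replicate 2, at 8.10 and 38.3 RPKM against 0.50 to 2.0 and 2.40 to 7.80 in the other libraries.

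Of 9 tested partner genes, Bst1 was called as given beside Cd38. Ms4a4b, a relative of Ms4a1, was 1.27 higher in ZnF1 than in ZnF4 mutants (adjusted p = 0.0411) at levels of 0.60 to 2.70 RPKM. Of 10 marginal zone and B1 genes, 3 were called by limma in ZnF4 mutants (8 at an unadjusted p under 0.05) and 0 in ZnF1 mutants (4). The 3 were the fatty acid receptor gene Cd36 (log2 fold change 2.40), the Notch target Dtx1 (-1.80) and Tm6sf1 (-0.93). Cr2 is also high on marginal zone cells, where Fcer2a is low. These calls against wild type were lost without any 1 of the wild-type and ZnF4 libraries, except that of Igll1, which was lost only without a ZnF4 library. Among the calls between the mutants, those of Bcl6 and Zbtb38 were lost without any 1 of the 6 libraries. Klf10 kept its call only without ZnF1 replicate 2, and Ms4a4b only without ZnF1 replicate 1.

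The genes nearest in pattern were found by Pearson r of log2 values over the 6 libraries for the 3 members with the widest range. They were Ankrd16 (r = 0.997) and Ccdc114 (0.993) for Zbtb20, Tmub1 (0.996) and Ccdc142 (0.992) for Cd38, and Rasl10a (0.995) and Fam151a (0.989) for Cd24a. Between 23 and 95 tested genes exceeded an r of 0.95 with each of these members. The 6 points share 3 genotypes, so these values describe likeness over these libraries only. Ankrd16 was at 12.6 and 14.0 RPKM in wild type, 12.9 and 14.9 in ZnF1 mutants, and 18.4 and 18.9 in ZnF4 mutants, the same order as Zbtb20 over a narrower range.

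RNA of other cells moved with some of these results. All libraries had B cell RNA, with 7 listed B cell genes at a summed 3708 to 4736 RPKM and T cell genes at a summed 14.9 to 22.6 RPKM. The 18 granulocyte and monocyte genes summed to 479 and 772 RPKM in wild type, 1501 and 8114 in ZnF1 mutants, and 1846 and 2048 in ZnF4 mutants, and Ly6c1 was listed at 0 in all libraries but ZnF4 replicate 2. Of 17 tested genes of that list, 17 in ZnF1 and 16 in ZnF4 mutants had a positive log2 fold change, led by Prtn3 (2.94 and 1.96) and S100a8 (2.53 and 1.66), and 0 passed by limma (15 and 7 at an unadjusted p under 0.05). The 10 erythroid genes summed to 690 RPKM in ZnF1 replicate 2 and to between 119 and 256 elsewhere, and 0 of them passed by limma in any comparison (0 at an unadjusted p under 0.05). Of 6 tested plasma cell genes 1 fell in ZnF1 mutants, Sdc1 (-2.24), a call kept only without ZnF1 replicate 1 when a library was left out, and of 3 tested progenitor genes 1 rose in ZnF4 mutants, Kit (2.79), a call lost without any 1 of the wild-type and ZnF4 libraries. Of the B cell genes 0 of 7 passed by limma in any comparison (3, 2 and 0 at an unadjusted p under 0.05), the smallest p in ZnF1 mutants being those of the transcription factor genes Ebf1 and Pax5 (log2 fold changes -0.60 and -0.76, and in ZnF4 mutants -0.43 and -0.41). Of the T cell genes 2 were tested, Lck (-0.51 and -0.36) and Thy1 (0.61 and 0.11), and 0 passed by limma (1 at an unadjusted p under 0.05). For Cd38, whose lowest value was in ZnF1 replicate 2, the log2 fold change with a term for the granulocyte and monocyte level was 0.018 in ZnF1 and 0.047 in ZnF4 mutants. For Cd93, Cd24a, Cr2 and Fcer2a in ZnF1 mutants it was -0.98, -0.99, 0.85 and 0.74 with that term. Between the ZnF1 libraries, which held 1501 and 8114 RPKM of these markers, the higher level was at most 1.10 times the lower for each of these 4 genes. All mutant libraries lay above wild type in the granulocyte and monocyte level, so the term does not cleanly separate that level from genotype. The part of such RNA in the changes of Cd38 and of these 4 genes was not tested. Ikzf1 itself lay between 168 and 287 RPKM, and 1 value per transcript does not check which exon was missing.

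**Figure D4:**
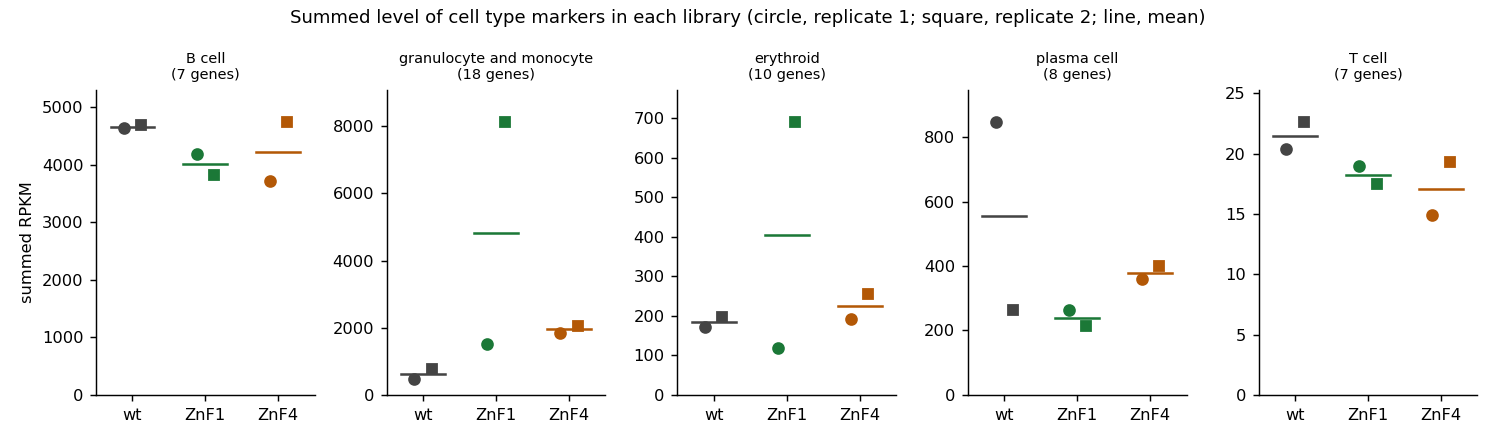
Summed RPKM (vertical axis from 0, one scale per list) of marker genes of B cells, granulocytes and monocytes, erythroid cells, plasma cells and T cells in the 3 genotypes. Circles are replicate 1, squares replicate 2 and lines the mean of 2. ZnF1 replicate 2 stands apart for granulocyte and erythroid genes (8114 and 690 RPKM), and wild-type replicate 1 for plasma cell genes (846 RPKM).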

How the data were processed

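The authors deposited 1 table of RPKM values for 26531 RefSeq transcripts in 6 libraries, rounded to 0.1 RPKM, with transcript lengths. Reads had been mapped to mm9, and TopHat and bedtools were used, per the submitters' processing notes; versions, strandedness and the scaling total are not given in the sources used here, so depth is unknown and no counting interval is given. The row with the highest mean stood for each gene name. Genes averaging at least 1 RPKM were tested on log2(RPKM + 0.5) with limma 3.58.1 in R 4.3.3 (1 coefficient per genotype, all 6 libraries, eBayes with trend, two-sided, 3 residual degrees of freedom), with Benjamini-Hochberg adjustment over 10322 genes and a threshold of 0.05. The script was tested on simulated data. Of 142 entries in 13 gene lists, 138 were in the table, some under an older symbol from the RefSeq gene table of GRCm38.p6. Named genes were the members, Ikzf1, up to 4 called genes of each list or the 2 with the smallest p, and the 2 nearest in pattern to each of 3 members. Bases were taken from RefSeq promoters, the start being that nearest to the GENCODE transcript paired with the row's RefSeq ID. The members and lists were chosen with earlier results of these data known. With 1 row without values left out, all 6 value columns were used.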

Additional observations from a re-analysis of the deposited data

How the results depend on the processing

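Each comparison was recomputed under 17 alternatives. Of 507 recomputed fold changes of members, 467 kept their direction and their side of the threshold, 16 lost a call, 6 gained one and 18 turned sign. Cd93, Cd24a, Cr2, Cd55, Zbtb20 and Zfp318 in the ZnF4 mutant and Cd93, Cd24a, Cr2 and Fcer2a in the ZnF1 mutant turned sign under none of them. The ZnF1 values ran from -1.0 to -0.82 for Cd93, -0.99 to -0.78 for Cd24a, 0.70 to 0.89 for Cr2 and 0.59 to 0.92 for Fcer2a. The causes of the following moves were not tested, except that fewer libraries or a changed set of tested genes alter the spread and the adjustment. Members called in the ZnF4 mutant numbered 1 with an added 0.1, 0 without a filter on low values (3 at an unadjusted p under 0.05), 1 with a mean RPKM of at least 3, where Zbtb20 was not tested, 0 with quantile normalization (5), 0 with a term for sex (2), 1 with a term for the granulocyte and monocyte level, and 0 to 2 when 1 library was left out. In the direct comparison the number was 1 with quantile normalization, 1 with that granulocyte term and 0 to 1 with a library left out, and in the ZnF1 mutant it was 0 to 1. Over all genes, calls in the ZnF1 mutant (28) became 0 without a filter by limma (1596 at an unadjusted p under 0.05), 13 with quantile normalization, 0 in the fit of 2 genotypes (1053), 0 with the sex term (863), 6 with the granulocyte term and 0 to 512 with a library left out. In the ZnF4 mutant (330) they became 189, 594 and 171 without a filter, in the fit of 2 genotypes and with the sex term, and 0 to 591 with a library left out. In the direct comparison (493) they became 309 without a filter, 249 in the fit of 2 genotypes, 777 with the granulocyte term and 0 to 814 with a library left out. Turned signs under the sex term were those of Ms4a1 in the ZnF1 (0.081) and Fcer2a in the ZnF4 mutant (-0.072). Under the granulocyte term they were those of Ms4a1 (0.24), Cd38 (0.018) and Zbtb20 (-0.19) in the ZnF1 and Ms4a1 (0.0065) and Cd38 (0.047) in the ZnF4 mutant. With 1 library left out, the ZnF1 fold change ran from -0.28 to 0.11 for Ms4a1, -0.18 to 0.24 for Cd55, -0.067 to 0.60 for Klf2 and -0.036 to 0.51 for Zfp318. The ZnF4 fold change ran from -0.64 to 0.019 for Klf2, -0.30 to 0.67 for Fcer2a, 0.18 to 0.50 for Cd55 and -0.61 to -0.071 for Zfp318, and the direct one from -0.073 to 0.27 for Cd24a, -0.084 to 0.30 for Ms4a1 and -0.85 to 0.18 for Cd38.

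The labels pair libraries across genotypes only by replicate number. In both mutants replicate 1 was female and replicate 2 male, so replicate number and sex cannot be told apart there. Deviations of same-numbered libraries correlated across genes at 0.28 (wild type and ZnF1), -0.03 (wild type and ZnF4) and 0.21 (ZnF1 and ZnF4). With the replicate number as a block, calls over all genes were 27, 327 and 529, and Zbtb20 passed in the direct comparison (adjusted p = 0.0474), making 1 member called there.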
